A study of Homo sapiens with 15 samples.

Results

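AMP-activated protein kinase (AMPK), the kinases that switch it on, and the TSC1-TSC2 complex were followed across 15 arrays of HCT116 xenograft tumors. The rule names genes and uses no measured value, although the genes were chosen with earlier results of these data known. It comprises 10 genes, namely the subunit genes PRKAA1, PRKAA2, PRKAB1, PRKAB2, PRKAG1 and PRKAG2, the kinase genes STK11 and CAMKK2, and TSC1 and TSC2, which encode no kinase. Every array probe other than a control whose RefSeq accession belongs to one of these genes was taken. This gave 11 of the 34127 probes, for 9 of the 10 genes, with PRKAA1 and TSC2 each read by a pair of probes. No probe mapped to PRKAG1. All 11 probes were well above background on all 15 arrays, so none was lost to the filter on dim probes that left 30598 probes for the tests.

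The arrays carry total RNA of tumors that HCT116 cells, a human colon carcinoma line, formed in athymic nude mice, which lack T cells but keep their other host tissue. Before injection the cells received the empty pCDNA3 vector, Myc-tagged wild type MOAP-1, Myc-tagged MOAP-1 with lysine changed to arginine at K264R or at K278R, or HA-tagged wild type RASSF1A, and 3 tumors were arrayed for each of the 5 constructs. MOAP-1 is a BAX-binding protein that promotes apoptosis, and RASSF1A is a scaffold protein that binds it. The cells carry their own MOAP-1 and RASSF1A in every group, were transfected transiently as pools and not as clones, and had grown for weeks as tumors when RNA was taken, so the arrays read the tumors and not the freshly transfected cells. The age of the mice is not given in the sources used here.

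The probes of MOAP1 and RASSF1 were set beside the labels. The MOAP1 probe (A_23_P205389) was higher than in vector tumors by 0.86 on the log2 scale in MOAP-1 tumors (limma adjusted p = 0.000842), by 0.55 in K264R tumors (adjusted p = 0.0094), and by 0.74 in K278R tumors (adjusted p = 0.00504). Of all kept probes, 5.85%, 11.7% and 6.67% rose at least as far. Whether the MOAP1 probe reads the construct or the cells' own MOAP1 was not tested. The RASSF1 probe (A_23_P41066) read 1.56, 1.55 and 1.59 in the tumors labelled RASSF1A and 1.72, 1.52 and 1.81 in the vector tumors, a change of -0.12 (adjusted p = 0.671 in limma), so the RASSF1A construct was not visible there; which transcripts the probe reads was not tested. Epithelial markers were well above background in every tumor (6 of 6 genes), with summed signals of 99.9 to 109 multiples of the 75th percentile in vector and of 76.1 to 95.4 in the other tumors. The summed signal of 6 fibroblast markers, in multiples of the 75th percentile, was 1.92 to 6.71 in vector tumors, 5.24 to 40.3 in MOAP-1, 4.2 to 18 in K264R, 9.62 to 37.9 in K278R, and 7.14 to 10.4 in RASSF1A tumors, with 3 of 6 markers well above background in all vector tumors, 4 in all MOAP-1 tumors, and 5 in all tumors of the others; LUM was missing from these counts in every construct. Leukocyte sums (4 markers) were 6.21 to 6.65 in vector, 7.08 to 9.56 in MOAP-1, 6.44 to 7.77 in K264R, 7.39 to 7.73 in K278R, and 6.43 to 11.3 in RASSF1A tumors. Endothelial sums (5 markers, with TEK below the well-above-background mark on at least 1 array of each construct) were 2.10 to 2.36 in vector, 2.41 to 2.82 in MOAP-1, 2.28 to 3.68 in K264R, 2.37 to 2.81 in K278R, and 2.43 to 2.79 in RASSF1A tumors, and erythroid sums (3 markers) were 10.7 to 12.5, 9.69 to 13.2, 8.51 to 10.9, 9.49 to 11.6, and 13.6 to 17.4 in the same order. The array probes are annotated to the human genome, whereas host cells of these tumors are of the mouse. Whether the sums of host markers read mouse RNA or RNA of the human cells was not tested. The part of host cells in the results was not tested either, and in such bulk RNA fewer cells of a type and less RNA per cell cannot be told apart. MOAP-1, K264R and K278R tumors shared no slide with vector or RASSF1A tumors, so slide and construct cannot be told apart in any comparison between these sets. K264R tumors also shared no slide with MOAP-1 or K278R tumors, so the same holds for every comparison with K264R.

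AMPK is a heterotrimer of a catalytic α, a scaffolding β, and a nucleotide-binding γ subunit, and it senses a fall in cellular energy through AMP and ADP bound to the γ subunit. LKB1, encoded by STK11, and the calcium-dependent kinase CaMKK2 phosphorylate the activation loop of the α subunit. Active AMPK turns off anabolic pathways, in part by phosphorylating TSC2, which with TSC1 holds back the growth kinase complex mTORC1. Activity is set by nucleotides and phosphorylation, which mRNA arrays do not read.

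Among these genes PRKAB1, which encodes the β1 subunit, differed most between constructs. Its signal was about 2.92-fold higher in MOAP-1 than in vector tumors, 2.59-fold higher in K264R, and 2.29-fold higher in K278R tumors, whereas the tumors labelled RASSF1A overlapped the vector tumors with a lower mean; with the normexp background model in place of the scanner's own correction, the changes were -0.0087 in MOAP-1, 0.24 in K264R and -0.23 in K278R tumors, or 0.52, 0.55 and 0.23 after subtracting the median change of all probes, which that model moved to -0.53, -0.31 and -0.46, and none was called. Without 21 spots of extreme local background, on vector tumors 2 and 3 and K264R tumor 2, that model gave 0.86, 0.65 and 0.63. Each of these PRKAB1 changes was called. The brighter of the PRKAA1 (α1) probes rose in the same 3 constructs by 1.29- to 1.42-fold. All 3 of its changes were negative with the normexp model with all spots kept, also after subtracting the median. The dimmer TSC2 probe, near the lowest signals well above background, fell in K264R tumors, a call lost with that model (adjusted p = 0.644). PRKAA2 (α2), PRKAB2 (β2), PRKAG2 (γ2), and TSC1 passed the test in none of the 7 comparisons. Signals are given as log2 values relative to the 75th percentile of each array, a change is the difference of the means of 3 tumors in this unit, and a probe was called where limma gave a Benjamini-Hochberg adjusted p below 0.05, at any size of change. Levels of different genes were not compared, and brighter and dimmer serve as names for the 2 probes of a gene.

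**Figure D1:**
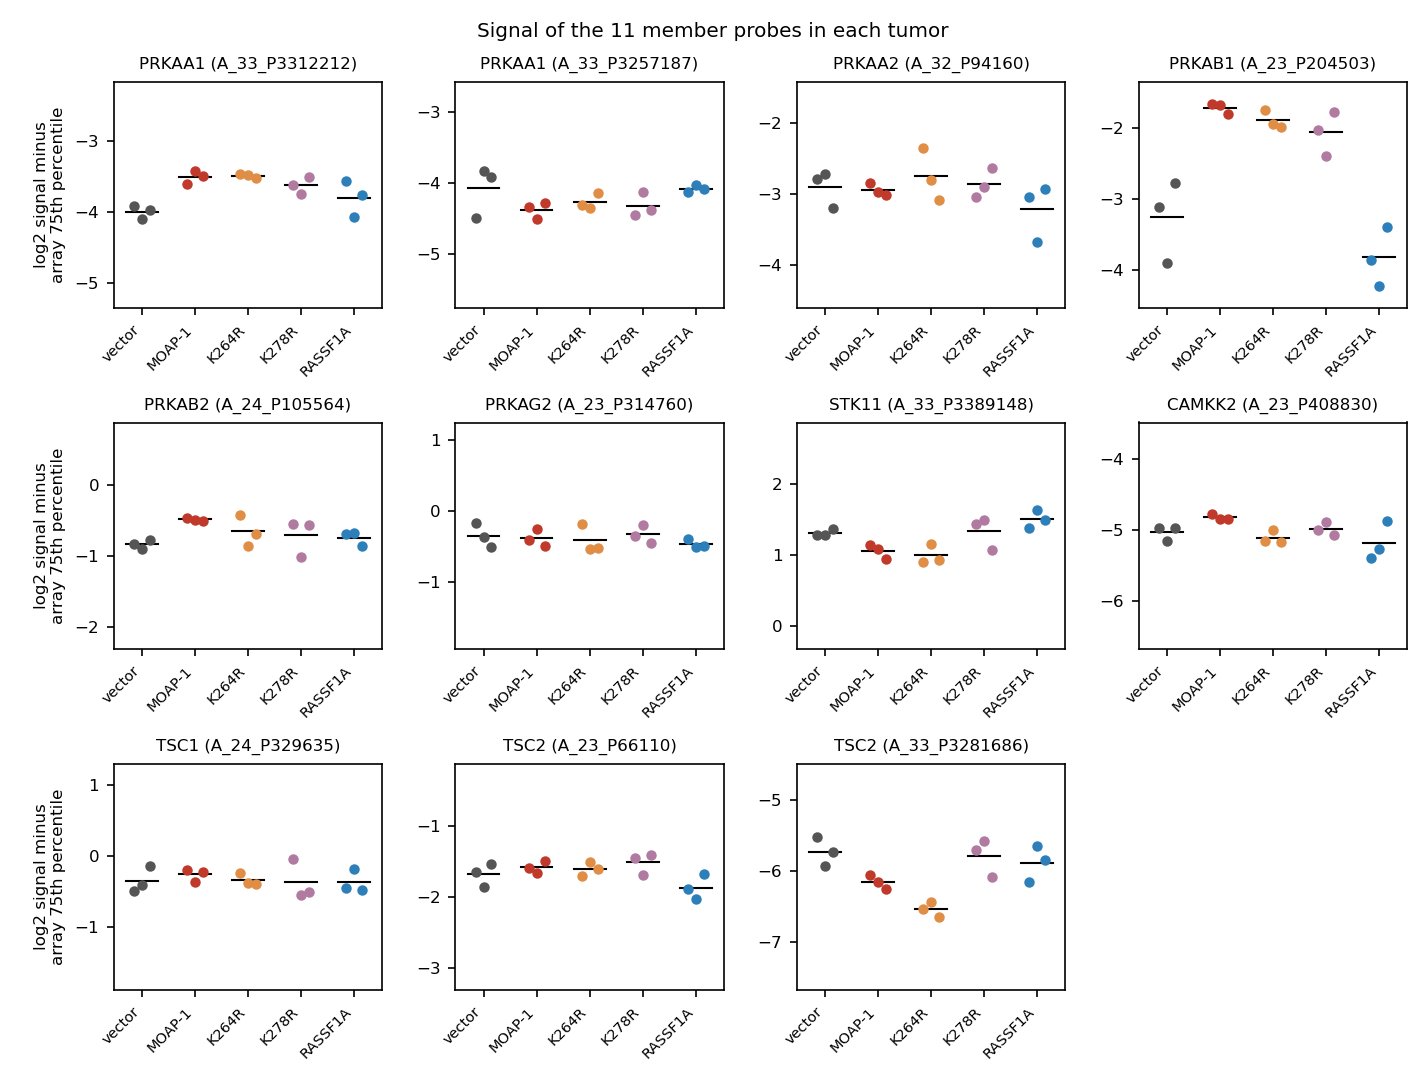
Log2 signal minus the 75th percentile of the array (vertical axis) of the 11 probes in every tumor, by construct (horizontal axis); points are single tumors, short lines the mean of 3 tumors, and every panel spans the same number of log2 units. In the PRKAB1 panel the 9 tumors of the MOAP-1 constructs sit between -2.39 and -1.66, all above the vector and RASSF1A tumors, which sit between -4.23 and -2.77 (with the normexp model the changes against vector were -0.0087 in MOAP-1 and -0.23 in K278R tumors, or 0.52 and 0.23 after subtracting the median change of all probes). Without spots of extreme local background that model gave 0.86 in MOAP-1 and 0.63 in K278R tumors.

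A difference somewhere among the 5 constructs was called by the moderated F test for 4 of the 11 probes, those of PRKAB1 (adjusted p = 0.00011), the dimmer TSC2 probe (adjusted p = 0.00436), the brighter PRKAA1 probe (adjusted p = 0.0147), and STK11 (adjusted p = 0.0197). The share among all 30598 probes was 43.4%, so 4 of 11 is near the background. With quantile normalization 2 and with the normexp model 0 of the 11 were called. Between the lowest and the highest construct mean, PRKAB1 spanned 2.11 on the log2 scale, a range that 1.55% of all kept probes reached. For TSC1 the span was 0.11 and for PRKAG2 0.14, which 99.1% and 98.0% of the kept probes reached.

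Against vector, 2 of 11 probes were higher in MOAP-1 tumors and 0 were lower, where 16.1% of all kept probes were higher and 14.4% lower. In K264R tumors 2 were higher and 1 was lower, with 15.1% and 19.8% of all probes. In K278R tumors 2 were higher and 0 lower, with 12.7% and 7.97% of all probes. In RASSF1A tumors 0 of 11 were called by limma and by the methods' t-test, and the share among all probes was 0%. An unadjusted p below 0.05 was reached in limma by 0 of the 11 and by 3696 of all 30598 probes. Without RASSF1A tumor 3, 1734 of all 30598 probes were called, and 0 of the 11. The counts of called probes against vector are thus near the background, and the median change of the 11 probes, 0.09 in MOAP-1, 0.01 in K264R, 0.04 in K278R and -0.12 in RASSF1A tumors, was small beside the 1.55 of PRKAB1. All 4 comparisons use the same 3 vector tumors.

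**Figure D2:**
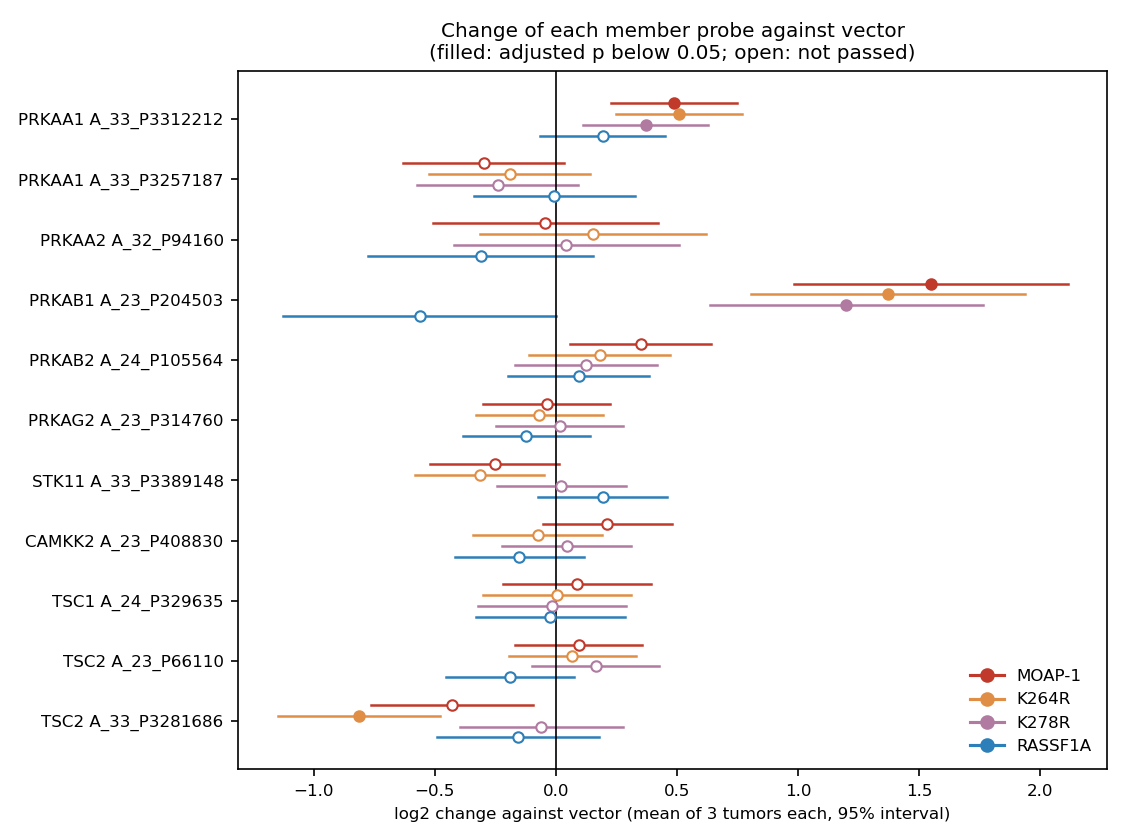
Log2 change against vector (horizontal axis) of each of the 11 probes (vertical axis) in MOAP-1, K264R, K278R, and RASSF1A tumors; points are differences of means of 3 tumors, bars 95% intervals from limma, and filled points passed an adjusted p of 0.05. PRKAB1 stands to the right for the 3 MOAP-1 constructs, at 1.55, 1.37, and 1.2, and to the left for RASSF1A, at -0.56. With the normexp model the changes in MOAP-1 and K278R tumors were -0.0087 and -0.23, or 0.52 and 0.23 after subtracting the median change of all probes. Without spots of extreme local background that model gave 0.86 and 0.63.

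The α subunits are the kinase itself. PRKAA1 (α1) was read by a pair of probes of the same accession that moved apart. The brighter probe (A_33_P3312212) read -3.61, -3.42 and -3.50 in MOAP-1 tumors, -3.47, -3.49 and -3.52 in K264R, -3.62, -3.75 and -3.52 in K278R, -3.92, -4.11 and -3.97 in vector, and -3.57, -4.08 and -3.77 in RASSF1A tumors. All 9 tumors of the MOAP-1 constructs thus lay above all 3 vector tumors, while the RASSF1A tumors overlapped both. Against vector the change was 0.49 in MOAP-1 tumors (standard error 0.12, adjusted p = 0.0088), 0.51 in K264R (adjusted p = 0.0057), 0.37 in K278R (adjusted p = 0.0439), and 0.19 in RASSF1A (adjusted p = 0.523). Of all kept probes, 16% rose at least as far in MOAP-1 tumors. With the normexp background model, in place of the scanner's own background correction, the 3 changes turned to -1.0, -0.39 and -1.02 (-0.47, -0.08 and -0.55 after subtracting the median change of the whole array), and with quantile normalization the change in MOAP-1 tumors was 0.35 (adjusted p = 0.0557). The K278R call was also lost in 10 of the 15 fits that left out a single tumor, those without any one of the K264R tumors, K278R tumor 1 or 3, MOAP-1 tumor 2 or 3, or any one of the vector tumors.

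The dimmer PRKAA1 probe (A_33_P3257187) read -4.34, -4.51 and -4.28 in MOAP-1 tumors and -4.49, -3.83 and -3.92 in vector tumors, so the groups overlapped. Its change against vector was -0.30 in MOAP-1 (adjusted p = 0.158), -0.19 in K264R, -0.24 in K278R, and -0.01 in RASSF1A tumors, none called. Over the 15 tumors the 2 PRKAA1 probes had a Pearson r of -0.66, given as a description of points that share arrays. Without vector tumor 1 the dimmer probe was called lower in all 3 MOAP-1 constructs (changes of -0.50, -0.40 and -0.45), which is opposite to the brighter probe. In that fit the K278R call of the brighter probe was lost. The 2 probes thus had estimates of opposite sign, but with all 15 tumors only the brighter was called. With the normexp model with all spots kept, both probes had negative changes in all 3 constructs.

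PRKAA2 (α2), the other catalytic subunit, read -2.85, -2.98 and -3.01 in MOAP-1 tumors and -2.79, -2.72 and -3.20 in vector tumors. Its lowest value was -3.67, in RASSF1A tumor 2, and its highest -2.36, in K264R tumor 1, each in a group that spread widely. No comparison was called. The change against vector was -0.04 in MOAP-1 (95% interval -0.51 to 0.42), 0.15 in K264R, 0.04 in K278R, and -0.31 in RASSF1A tumors.

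The β subunits hold the trimer together and bind glycogen. PRKAB1 (β1) lies at chromosome 12 and PRKAB2 (β2) at chromosome 1. The promoters of PRKAB1 and PRKAA1, the genes with a probe that rose in all 3 MOAP-1 constructs, are shown beside that of PRKAB2, the paralog that was not called. They are RefSeq sequences of the build GRCh38.p14, 250 bases before to 50 after the annotated start, written 5′ to 3′ on the strand of the gene, at chr12:119667883-119668182 (+) for PRKAB1, chr5:40798128-40798427 (-) for PRKAA1 and chr1:147172421-147172720 (-) for PRKAB2. Capitals mark matches, on either strand, to GGGCGG (the GC box bound by Sp factors), CCAAT (the box bound by NF-Y), TGACGTCA (the cyclic AMP response element) or CACGTG (an E box).
PRKAB1: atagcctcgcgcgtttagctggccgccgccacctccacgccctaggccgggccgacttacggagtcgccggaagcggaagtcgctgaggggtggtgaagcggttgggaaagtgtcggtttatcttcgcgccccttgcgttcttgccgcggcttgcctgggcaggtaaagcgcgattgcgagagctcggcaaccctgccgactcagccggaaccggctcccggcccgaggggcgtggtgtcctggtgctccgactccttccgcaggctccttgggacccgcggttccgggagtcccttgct
PRKAA1: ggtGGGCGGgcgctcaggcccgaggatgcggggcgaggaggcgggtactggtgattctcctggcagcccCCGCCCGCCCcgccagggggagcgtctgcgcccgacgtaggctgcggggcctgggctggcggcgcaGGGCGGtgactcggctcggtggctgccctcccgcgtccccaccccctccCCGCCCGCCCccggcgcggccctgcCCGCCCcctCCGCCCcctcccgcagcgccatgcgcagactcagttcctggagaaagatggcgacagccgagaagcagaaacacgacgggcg
PRKAB2: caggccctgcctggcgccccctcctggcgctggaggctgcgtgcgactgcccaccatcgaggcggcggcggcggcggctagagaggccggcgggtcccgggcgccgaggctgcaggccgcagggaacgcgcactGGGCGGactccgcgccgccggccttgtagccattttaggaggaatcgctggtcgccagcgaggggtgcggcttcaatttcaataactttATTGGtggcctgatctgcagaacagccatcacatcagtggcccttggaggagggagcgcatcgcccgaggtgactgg
The PRKAB1 window held none of the 4 motifs, the PRKAA1 window held 8 GC boxes, partly overlapping, and the PRKAB2 window held 1 GC box and 1 CCAAT box. Of all 35116 promoter windows of this length in the table, 45% held a GC box, 34.6% a CCAAT box, 1.85% the cyclic AMP response element, and 7.26% the E box. All 10 genes had at least 1 window in the table, 15 in all. Of these, 11 held a GC box, 4 a CCAAT box, 1 the E box, and 0 the cyclic AMP response element.

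The PRKAB1 probe (A_23_P204503) read -1.66, -1.68 and -1.80 in MOAP-1 tumors, -1.74, -1.94 and -1.99 in K264R, and -2.02, -2.39 and -1.77 in K278R tumors. It read -3.11, -3.90 and -2.77 in vector and -3.86, -4.23 and -3.39 in RASSF1A tumors. The 9 tumors of the MOAP-1 constructs lay above the other 6 without overlap, while vector and RASSF1A overlapped. The spread within a construct was unequal, with a standard deviation (SD) of 0.07 in MOAP-1 and of 0.58 in vector tumors (n = 3 each).

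Against vector, PRKAB1 changed by 1.55 in MOAP-1 tumors (standard error 0.26, 95% interval 0.98 to 2.11, adjusted p = 0.000996), and 0.876% of all kept probes rose at least as far. The change was 1.37 in K264R tumors (95% interval 0.81 to 1.94, adjusted p = 0.00157), and 1.2 in K278R tumors (95% interval 0.63 to 1.76, adjusted p = 0.00872). It was -0.56 in RASSF1A tumors (adjusted p = 0.414), with a 95% interval of -1.13 to 0.00. In the order MOAP-1, K264R, K278R, vector, RASSF1A, only the step from K278R to vector passed the test. The others were 0.18 between MOAP-1 and K264R (95% interval -0.39 to 0.74, adjusted p = 0.843), 0.17 between K264R and K278R (K278R minus K264R -0.17, adjusted p = 0.672), and the 0.56 between vector and RASSF1A.

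The rise in MOAP-1 tumors was between 1.23 and 1.79 when any single tumor was left out, with the lowest value without vector tumor 2. It was 0.86 (adjusted p = 0.000276) with the normexp model fitted without spots of extreme local background, where K264R and K278R tumors also passed (0.65 and 0.63, adjusted p = 0.00102 and 0.00599), but -0.0087 (adjusted p = 0.987) with those spots kept, where the median of all probes moved to -0.53. After subtracting it the change of PRKAB1 was 0.52. By the methods' t-test the adjusted p was 0.0554 in MOAP-1, 0.0571 in K264R, and 0.174 in K278R tumors, and with only the arrays compared the K278R change had an adjusted p of 0.0585.

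PRKAB2 (β2) read -0.47, -0.49 and -0.50 in MOAP-1 and -0.84, -0.90 and -0.78 in vector tumors, without overlap. K264R tumors (-0.42, -0.86 and -0.69) overlapped both of these groups. K278R tumors (-0.55, -1.02 and -0.57) and RASSF1A tumors (-0.69, -0.68 and -0.87) overlapped vector tumors and lay below the MOAP-1 tumors. The change of 0.35 in MOAP-1 tumors (95% interval 0.06 to 0.64) had an adjusted p of 0.0653. It passed with array weights (adjusted p = 0.031), with slide as a random block (adjusted p = 0.038), with only the arrays compared (adjusted p = 0.0261), and without K278R tumor 2 (adjusted p = 0.0246).

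The γ subunits bind AMP, ADP, and ATP. PRKAG2 (γ2) had the narrowest range of the subunits. It read -0.41, -0.26 and -0.49 in MOAP-1 tumors and -0.17, -0.36 and -0.51 in vector tumors, and over all 15 tumors it ran from -0.53 to -0.17. Its changes against vector lay between -0.12 and 0.02, and the 95% interval in MOAP-1 tumors was -0.30 to 0.22, so changes beyond that were outside it. PRKAG3 (γ3), which is not among the 10 genes and was counted with the pathway genes, is given with them.

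STK11 encodes LKB1, the master kinase of the AMPK family. Its probe (A_33_P3389148) read 1.14, 1.09 and 0.94 in MOAP-1 tumors, 0.90, 1.15 and 0.93 in K264R, and 1.43, 1.50 and 1.06 in K278R tumors. It read 1.28, 1.28 and 1.36 in vector and 1.38, 1.63 and 1.49 in RASSF1A tumors. MOAP-1 and K264R tumors lay below all vector and RASSF1A tumors, and K278R tumors spanned both ranges. The changes against vector were -0.25 in MOAP-1 (adjusted p = 0.134), -0.31 in K264R (adjusted p = 0.0626), 0.02 in K278R, and 0.19 in RASSF1A tumors, none called.

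CAMKK2, the calcium-dependent activator, was read by a dim probe (A_23_P408830) at -4.77, -4.85 and -4.84 in MOAP-1 tumors and -4.97, -5.16 and -4.97 in vector tumors. The MOAP-1 tumors were the 3 highest of the 15. They were higher than vector by 0.21 (adjusted p = 0.207), and the other constructs differed from vector by -0.15 to 0.04, none called.

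TSC1 and TSC2 form the complex through which AMPK restrains mTORC1. TSC1 read -0.19, -0.37 and -0.22 in MOAP-1 and -0.49, -0.41 and -0.14 in vector tumors, and its change against vector lay between -0.02 and 0.09 in the 4 constructs, with a 95% interval of -0.22 to 0.39 in MOAP-1 tumors. The brighter TSC2 probe (A_23_P66110) read -1.6, -1.66 and -1.50 in MOAP-1 and -1.65, -1.86 and -1.53 in vector tumors, and changed by 0.09, 0.07, 0.16 and -0.19 in MOAP-1, K264R, K278R and RASSF1A tumors, none called.

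The dimmer TSC2 probe (A_33_P3281686), listed under another accession of the gene, read -6.53, -6.44 and -6.64 in K264R tumors, -6.06, -6.15 and -6.24 in MOAP-1, and -5.52, -5.93 and -5.73 in vector tumors. K264R tumors were the 3 lowest of the 15. The change against vector was -0.81 in K264R (standard error 0.16, adjusted p = 0.00157), -0.43 in MOAP-1 (adjusted p = 0.0519), -0.06 in K278R, and -0.16 in RASSF1A tumors. Of all kept probes, 6.43% fell at least as far in K264R tumors, and 5.61% had a mean level as low as this probe or lower. The lowest signal marked well above background was -6.06, -6.65 and -6.98 on the vector arrays. On the K264R arrays it was -7.06, -7.49 and -7.43. The K264R values of the probe thus lay below the lowest such signal of vector tumor 1. Whether this bears on the fall was not tested. With the normexp model the change in K264R tumors was -0.998 (adjusted p = 0.644), and without spots of extreme local background -0.84 (adjusted p = 0.00358). The other probe of the gene had an r of -0.18 with it over the 15 tumors.

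Between MOAP-1 and K264R, and between MOAP-1 and K278R, 0 of the 11 probes were called by limma, and 2 in each had an unadjusted p below 0.05. Those were CAMKK2 and the dimmer TSC2 probe against K264R, and STK11 and the dimmer TSC2 probe against K278R. Of all 30598 probes, 3328 against K264R and 2823 against K278R had an unadjusted p below 0.05. The methods' t-test called 0 in both. Among all probes, 0.00327% were higher and 0% lower against K264R, and 0% were called against K278R in either direction. With array weights 7745 of all probes were called between MOAP-1 and K264R, CAMKK2 (0.33, adjusted p = 0.011) and the dimmer TSC2 probe (0.46, adjusted p = 0.0105) among them. Slide and construct cannot be told apart between MOAP-1 and K264R tumors. On the slide that held MOAP-1 tumor 2 and all K278R tumors, that tumor exceeded the K278R mean by 0.38 for PRKAB1 and by 0.20 for the brighter PRKAA1 probe.

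Against RASSF1A tumors, 2 probes were higher and 1 was lower in MOAP-1 tumors, where 19.2% of all probes were higher and 18% lower. The PRKAB1 signal was 4.32-fold that of RASSF1A tumors, a log2 change of 2.11 (standard error 0.26, 95% interval 1.55 to 2.68, adjusted p = 8.04e-05) that 0.52% of kept probes reached. With the normexp model it was 1.23 and not called (adjusted p = 0.0788), and without spots of extreme local background it was 1.23 and called (adjusted p = 1.33e-05). STK11 was lower by 0.45 (change -0.45, adjusted p = 0.0121), and CAMKK2 was higher by 0.36 (adjusted p = 0.0334), but with the normexp model its change was -0.067, or 0.04 after subtracting the median change of all probes. STK11 changed by -0.41 with the normexp model and was not called (adjusted p = 0.133). Without spots of extreme local background it was called (adjusted p = 0.016). The STK11 call was lost without RASSF1A tumor 2 (adjusted p = 0.0544), and the CAMKK2 call without any one of the MOAP-1 tumors or without RASSF1A tumor 1 or 2 (5 of 15 fits). RASSF1A tumors 1 and 2 were the only tumors of their scan day. With the scan day as a block, the contrast thus set MOAP-1 tumors against RASSF1A tumor 3 alone. The change was then 1.68 for PRKAB1, -0.44 for STK11, and 0.06 for CAMKK2. On the slide that held all vector tumors and RASSF1A tumor 3, that tumor differed from the vector mean by -0.13 for PRKAB1 and by 0.19 for STK11.

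The genes whose signals ran most like the brighter PRKAA1 probe over the 15 tumors were PSMD5 (r = 0.934), C4orf36 (0.93), R3HCC1L (0.93), MTM1 (0.928), and PSME4 (0.92). PSMD5 is a chaperone of the proteasome, PSME4 one of its activators, and MTM1 a lipid phosphatase. For PRKAB1, chosen after its values were seen, they were RNF41 (r = 0.996), CRTC3 (0.993), MCL1 (0.993), INO80C (0.992), and IGBP1 (0.992). RNF41 is a ubiquitin ligase, CRTC3 a coactivator of CREB, and MCL1 an apoptosis inhibitor of the BCL2 family. MCL1 rose by 1.66 in MOAP-1, 1.65 in K264R and 1.19 in K278R tumors, and read -0.70 in RASSF1A tumors against vector, close to the values of PRKAB1. It was picked for its high r, so a like pattern was given by the choice.

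PRKAB1 shared its pattern with many probes. At an r of 0.9 or more it was followed by 1945 of 30485 probes (6.38%), and at -0.9 or less by 1065 (3.49%). For the brighter PRKAA1 probe these were 16 and 31 probes, for the brighter TSC2 probe 55 and 1, and for PRKAG2, TSC1, and PRKAA2 0 and 0. Among the 11 probes themselves, PRKAB1 had an r of 0.783 with the brighter PRKAA1 probe, of 0.782 with the brighter TSC2 probe, of 0.529 with PRKAB2, and of -0.717 with STK11. These values describe 15 tumors that share construct and slide and are given without a test.

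**Figure D3:**
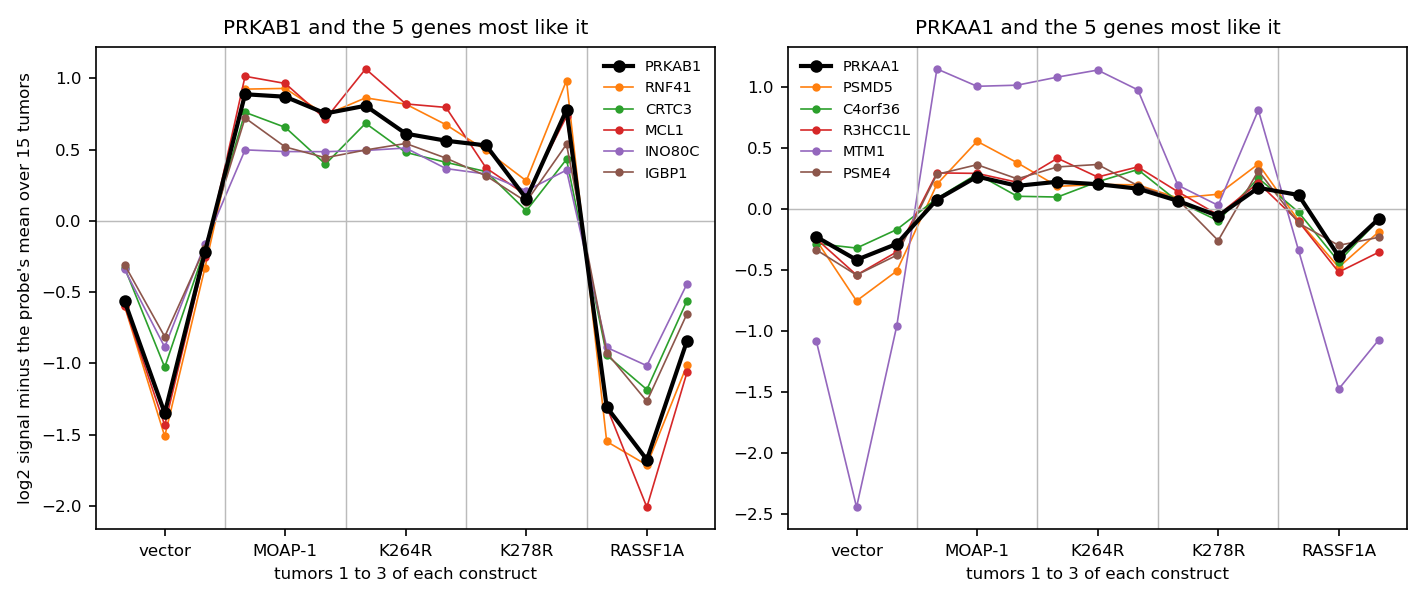
Log2 signal minus the mean of the probe over the 15 tumors (vertical axis) for PRKAB1 (left) and the brighter PRKAA1 probe (right), in black, with the 5 genes most like each, in color; the horizontal axis holds tumors 1 to 3 of each construct, and the lines only join points of one gene. The 5 genes drawn with PRKAB1 were picked for the highest r with it (0.992 to 0.996). That they follow it tumor by tumor, including the low value of vector tumor 2, thus comes from the choice.

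Other genes of the pathway were taken from 5 lists of 64 genes with 93 probes. The lists were chosen with earlier results of these data known, so their shares beside those of all probes do not test the pathway. Against vector, 25 of the 93 probes were higher and 10 lower in MOAP-1 tumors (26.9% and 10.8%, beside 16.1% and 14.4% of all probes). In K264R tumors 23 were higher and 10 lower (24.7% and 10.8%, beside 15.1% and 19.8% of all probes). With the normexp model without spots of extreme local background they were 16 and 21, and 16826 of all 30598 probes were called. In K278R tumors 18 were higher and 5 lower (19.4% and 5.38%, beside 12.7% and 7.97%). In RASSF1A tumors limma and the methods' t-test called 0, and 5 had an unadjusted p below 0.05, beside 3696 of all 30598 probes. The median change in MOAP-1 tumors was 0.15, beside 0.02 over all probes. Between MOAP-1 and K264R and between MOAP-1 and K278R limma and the methods' t-test called 0. In these comparisons 9 and 10 had an unadjusted p below 0.05, beside 3328 and 2823 of all 30598 probes. Against RASSF1A tumors 27 were higher and 13 lower in MOAP-1 tumors (29% and 14%, beside 19.2% and 18%). With the normexp model 1 of the 93 was higher and 1 lower in MOAP-1 than in vector tumors, beside 538 of all 30598 probes called. Most calls of the list genes named below were thus lost with that model. With spots of extreme local background left out 21 were called, beside 6358 of all probes. The lists were not tested as sets.

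In the list of LKB1 partners and other activating kinases, 5 of 14 probes were higher and 1 lower in MOAP-1 than in vector tumors (35.7% and 7.14%, beside 16.1% and 14.4% of all probes). CAB39, the scaffold MO25 that locks LKB1 in its active form, read 0.23, 0.10 and -0.02 in MOAP-1 and -0.90, -0.88 and -1.05 in vector tumors at its probe A_23_P79426, so the groups did not overlap. It rose by 1.05 (adjusted p = 0.00314) in MOAP-1, 1.27 in K264R, and 0.68 in K278R tumors, and its other probe rose by 0.68 in MOAP-1 tumors. CAMKK1, the other calcium-dependent AMPK kinase, rose by 1.01 (adjusted p = 0.00141) at 1 probe, and its other probe had a change of -0.47 (adjusted p = 0.0803). STRADA, the pseudokinase of the LKB1 complex, fell by 0.30 at 1 probe (adjusted p = 0.0498), while its other probe had a change of 0.39 (adjusted p = 0.0528).

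Among the AMPK-related kinases that LKB1 activates, 4 of 17 probes were higher and 1 lower in MOAP-1 tumors (23.5% and 5.88%, beside 16.1% and 14.4% of all probes). MARK2, a kinase of microtubule-associated proteins, rose by 0.59 (adjusted p = 0.0328) at 1 probe, while its other probe had a change of -0.50 (adjusted p = 0.117). BRSK1, a brain-enriched kinase, rose by 0.50 (adjusted p = 0.0212). MARK4 fell by 0.38 at 1 probe (adjusted p = 0.023) and rose by 0.33 at another (adjusted p = 0.0455), and the remaining probe had a change of 0.14.

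Among the AMPK substrates, 5 of 23 probes were higher and 2 lower (21.7% and 8.7%, beside 16.1% and 14.4% of all probes). PFKFB2, which makes the glycolytic activator fructose 2,6-bisphosphate, read -3.75, -3.41 and -3.55 in MOAP-1 tumors and -4.78, -5.28 and -4.88 in vector tumors at A_24_P413669. It rose by 1.41 (adjusted p = 0.000218) there and by 0.69 (adjusted p = 0.00236) at its other probe. SREBF1, the transcription factor of fatty acid synthesis, read 0.35, 0.60 and 0.50 in MOAP-1 and 1.40, 1.50 and 1.14 in vector tumors. It fell by 0.86 (adjusted p = 0.000292) at this probe, and its other probe had a change of -0.19 (adjusted p = 0.314). FOXO3, a stress-responsive transcription factor, fell by 0.36 at 1 probe (adjusted p = 0.0376) and rose by 0.45 at another (adjusted p = 0.00482), and the remaining probe had a change of -0.36 (adjusted p = 0.0562).

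In the mTORC1 list, 7 of 27 probes were higher and 5 lower (25.9% and 18.5%, beside 16.1% and 14.4% of all probes). DEPDC5, a subunit of the GATOR1 complex that restrains mTORC1, rose by 1.30 (adjusted p = 0.00858) at 1 of 3 probes, while the other 2 had changes of -0.22 and -0.02. LAMTOR3, a subunit of the lysosomal Ragulator complex, rose by 0.97 (adjusted p = 0.028), and its other probe had a change of 0.87 (adjusted p = 0.0611). NPRL2, another GATOR1 subunit, fell by 0.65 (adjusted p = 0.0011). TBC1D7, a further member of the TSC complex, fell by 0.83 at 1 probe (adjusted p = 0.000581) and rose by 0.76 at another (adjusted p = 0.000339), so its direction depended on the probe.

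In the list of AMPK-linked regulators and phosphatases, 4 of 12 probes were higher and 1 lower (33.3% and 8.33%, beside 16.1% and 14.4% of all probes). SESN1, a sestrin that represses mTORC1, read -2.29, -2.21 and -2.16 in MOAP-1, -2.53, -2.32 and -2.45 in K264R, and -2.70, -3.02 and -2.28 in K278R tumors. It read -3.87, -4.01 and -3.55 in vector and -3.39, -3.67 and -3.60 in RASSF1A tumors, and the 9 tumors of the MOAP-1 constructs lay above the other 6. SESN1 rose by 1.59 in MOAP-1 tumors (adjusted p = 0.000159). With the normexp model only 1 of the 93 list probes was called higher in these tumors. FLCN, folliculin, a lysosomal partner of AMPK, rose by 0.98 (adjusted p = 0.00142) at 1 probe, while its other probe had a change of -0.19 (adjusted p = 0.28). PRKAG3, the γ3 subunit known from skeletal muscle, read 2.63, 2.84 and 2.72 in MOAP-1 and 3.51, 3.71 and 3.32 in vector tumors and fell by 0.78 (adjusted p = 0.000339). The summed signal of 4 skeletal muscle markers was 0.12 to 0.376 in vector and 0.12 to 0.252 in the other tumors, with MYH1 below the well-above-background mark on at least 1 array of each construct. Whether these human probes read mouse muscle was not tested.

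**Figure D4:**
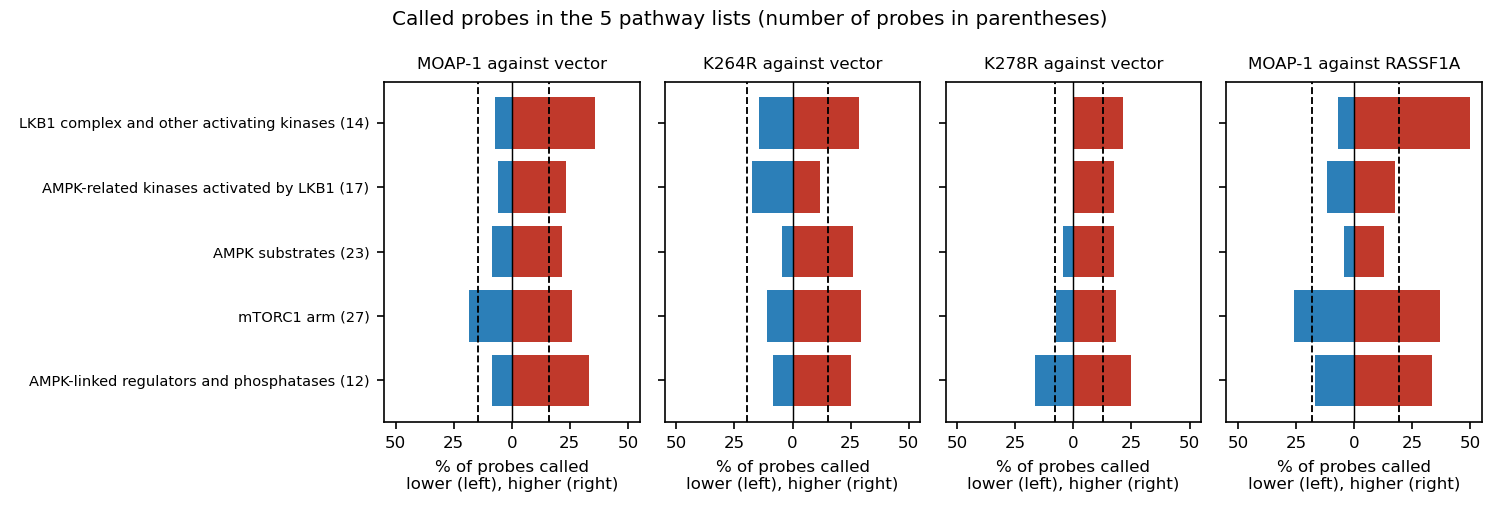
Share of the probes of each pathway list (rows, with the number of probes) that were called lower (left, blue) or higher (right, red) in 4 comparisons; dashed lines give the shares among all 30598 kept probes. In MOAP-1 against vector the bars for higher probes run from 21.7% to 35.7%, beside 16.1% of all probes. With the normexp model 1 of the 93 probes was higher and 1 lower there. The lists were chosen with earlier results of these data known and were not tested as sets.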

How the data were processed

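Total RNA of 15 tumors was hybridised to 1-color Agilent arrays. Per the file headers the authors deposited scanner intensity values (background-subtracted processed signal, annotated to hg19). The submitters' processing notes name Agilent Feature Extraction 9.1, whereas the file headers name another version of it. The authors also deposited a table of normalized log2 values, of which 8 columns followed the array of their label and 7 another array of the same construct, so it served only as an alternative. No file gives counts, so precision is limited by the number of arrays.

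From the intensities, log2 processed signal minus the 75th percentile of each array was computed, spots of a probe were averaged, and probes well above background on every array of a construct were kept (30598 of 34127). Constructs were compared with limma 3.58.1 in R 4.3.3 (lmFit, eBayes, all 15 arrays, 10 residual degrees of freedom), with p-values adjusted by Benjamini-Hochberg over all kept probes. The labels do not say that tumors came from separate mice, so p-values measure the spread between these tumors. Named pathway probes were the 2 called probes with the largest rise and the 2 with the largest fall between MOAP-1 and vector in each list; the 5 probes most like PRKAA1 were chosen by correlation. The rule for members uses gene names alone, but members and lists were chosen with earlier results of these data known. Alternatives were other background models (normexp, offset 50, with or without 21 spots of extreme local background), quantile normalization, other filters, the authors' table, array weights, blocks (scan day, slide, replicate number), fewer arrays, the methods' t-test, 1 probe per gene, a fold limit of 1.5, and leaving out each tumor. Scripts were tested on simulated data. Promoters are RefSeq sequences (GRCh38.p14).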

Additional observations from a re-analysis of the deposited data

Results flagged for a closer look

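For 3 genes, the change in MOAP-1 tumors differed from the change in RASSF1A tumors, both taken against the same vector tumors, by the direct contrast of the constructs in limma. In log2 units the difference was 2.11 for PRKAB1 (adjusted p = 8.04e-05, standard error 0.26), and 1.23 with the normexp background model (adjusted p = 0.0788). STK11 differed by -0.45 (standard error 0.12, adjusted p = 0.0121), and CAMKK2 by 0.36 (standard error 0.12, adjusted p = 0.0334). With the normexp model these were -0.41 (adjusted p = 0.133) and -0.067, and neither was called. Of the 15 fits that left out a single tumor, 1 lost the STK11 call and 5 lost the CAMKK2 call. Slide and construct cannot be told apart for these contrasts.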

How the results depend on the processing

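With the normexp background model 0 were called in MOAP-1, K264R and K278R against vector, in MOAP-1 against RASSF1A, and among the 5 constructs, and the pathway lists gave 2, 5, 0 and 11 (MOAP-1, K264R, K278R against vector, MOAP-1 against RASSF1A). Of all 30598 probes, 538, 959, 1 and 2498 were called in the same order. Without spots of extreme background 1, 4 and 1 were called in MOAP-1, K264R and K278R tumors (in K264R PRKAB1 higher, and CAMKK2 and the dimmer PRKAA1 and TSC2 probes lower), and the lists gave 21 in MOAP-1, 16 higher and 21 lower in K264R, and 12 in K278R. Of all 30598 probes, 6358, 16826 and 3041 were called in these 3 comparisons. Among called changes, those that turned sign with normexp were of the brighter PRKAA1 probe (-1.0, -0.39 and -1.02 in MOAP-1, K264R and K278R tumors, and -0.17 and -0.020 in K264R and K278R without extreme spots), PRKAB1 (-0.0087 and -0.23 in MOAP-1 and K278R), and CAMKK2 against RASSF1A (-0.067 in both). After subtracting the median change of all probes, PRKAB1 was at 0.52 and 0.23 and CAMKK2 at 0.04, and PRKAA1 at 0.09 and 0.04 without extreme spots but at -0.47, -0.08 and -0.55 with them. The 21 spots of extreme local background lay on K264R tumor 2 (6 spots), vector tumor 2 (6 spots), and vector tumor 3 (9 spots). The cause of the sign changes was not tested. Quantile normalization left 1 call in K278R tumors and 2 among the 5 constructs, and no filter 1 in K278R. In K278R tumors these settings called 5347 of all 30598 and 5756 of all 34127 probes. Array weights gave 4 calls in MOAP-1 and 2 between MOAP-1 and K264R (lists: 50 in K264R, 23 between MOAP-1 and K264R). Of all 30598 probes, array weights called 11218 in MOAP-1, 15885 in K264R, and 7745 between MOAP-1 and K264R. Slide as a random block gave 4 in MOAP-1, beside 10822 of all 30598 probes. Only the arrays compared gave 4 in MOAP-1 and 0 in K278R (lists: 4), and the methods' t-test 0 in K278R (lists: 0). Of all 30598 probes, only the arrays compared called 8747 in MOAP-1 and 1220 in K278R, and the methods' t-test called 0 in K278R. A fold of at least 1.5 left 1 in MOAP-1, 2 in K264R, 1 in K278R, and 1 against RASSF1A. The share of all probes that passed this limit is not given here, so these counts are not read as a result. With scan day as a block the contrast against RASSF1A rested on RASSF1A tumor 3 alone, so its calls are not given. The brightest probe of each gene gave 21, 20 and 13 list calls in MOAP-1, K264R and K278R tumors, of 64 list probes. Of all 25072 such probes, 7381, 8573 and 4914 were called.

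Leaving out 1 tumor gave 2 to 4 calls in MOAP-1 (4 without K278R tumor 2), 3 to 4 in K264R, 1 to 2 in K278R (1 without any K264R tumor, K278R tumor 1 or 3, MOAP-1 tumor 2 or 3, or vector tumor 2 or 3), 0 to 0 in RASSF1A, 0 to 0 between MOAP-1 and each mutant, 1 to 4 against RASSF1A (1 without RASSF1A tumor 2), and 3 to 5 among the 5 constructs. List calls were 23 to 46 in MOAP-1 and 12 to 28 in K278R (lowest without vector tumor 2), 23 to 38 in K264R, 0 to 1 in RASSF1A (1 without RASSF1A tumor 3), 0 to 0 against K264R, 0 to 2 against K278R (2 without K278R tumor 3), and 34 to 46 against RASSF1A. Over the 15 fits, 5838 to 10537 of all 30598 probes were called in MOAP-1 and 7624 to 11728 in K264R tumors. In K278R tumors 2410 to 6952 were called, and against RASSF1A 8807 to 12540. The most in MOAP-1 were called without K278R tumor 2. The fewest in MOAP-1 and in K278R were called without vector tumor 2. Without K278R tumor 3, 236 of all probes were called between MOAP-1 and K278R.

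Same-numbered tumors deviated together in 15 of 30 pairs (r over 0.1, range -0.25 to 0.37), and 4 of 15 tumors correlated best with their own number. With 3 tumors per construct these correlations cannot decide whether same-numbered tumors were paired. With a replicate block 2, 3, 2 and 0 AMPK probes were called against vector in MOAP-1, K264R, K278R and RASSF1A tumors, 3 in MOAP-1 against RASSF1A and 4 among the 5 constructs, and PRKAB1 changed by 1.55 in MOAP-1 tumors (limma adjusted p = 0.000507). Of all 30598 probes, 9378, 10573, 6471 and 0 were called against vector with this block, and 11381 in MOAP-1 against RASSF1A.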
